A study of Homo sapiens with 18 samples.

Results

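The genes described here carry fatty acids into the cell, activate them and burn them in mitochondria and peroxisomes, together with the nuclear receptor PPARA, genes it is known to switch on, and an enzyme of ketone body formation. They were picked by name for these roles, as 37 of the 36684 gene symbols in the count table. All 37 held enough counts to pass the filter on low counts, which 14557 symbols passed. By role they fall into 7 subgroups: uptake and binding (4 genes), activation and acyl-CoA hydrolysis (6), the carnitine shuttle (3), mitochondrial β-oxidation (12), electron transfer (3), peroxisomal β-oxidation (3), and PPARA with its targets and ketone metabolism (6).

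RNA was sequenced from Hep3B, a human hepatoma cell line, in 6 groups of 3 libraries. Con is the control. The model group received free fatty acids (FFA), and the other 4 groups received FFA with fucoxanthin (FUCO), a carotenoid of brown algae, at 0.5, 1 or 2 μM, or with Resmetirom (RES), a thyroid hormone receptor β agonist used by the study as its positive drug. The labels do not give the FFA concentration, the treatment times or the RES dose of these libraries. In every comparison the cells came from a single tumour-derived line.

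Liver cells take up fatty acids through membrane proteins, bind them in the cytosol and couple them to coenzyme A. CPT1A, the carnitine translocase SLC25A20 and CPT2 then move long-chain acyl groups into mitochondria, where repeated rounds of oxidation release acetyl-CoA, while peroxisomes shorten very long chains. Fatty acids are themselves ligands of PPARA, a receptor that binds DNA with RXR at direct repeats of AGGTCA-like elements spaced by a single base (DR1) and is known for raising oxidation and ketone genes in fasted liver. Thyroid hormone receptors bind repeats spaced by 4 bases (DR4).

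Each library held between 16916688 and 23083498 counts. All 12 hepatocyte markers examined were detected in every group, and the mesenchymal markers ACTA2 and COL3A1, the endothelial markers CDH5 and KDR and the macrophage marker CD163 were at 0 throughout. The summed hepatocyte markers ran from 69910 to 78350 CPM (counts scaled to library size with TMM factors) in the Con libraries, from 58200 to 59050 in the model libraries and from 22150 to 22440 with RES, with 40230 to 45180 at 2 μM FUCO between them. The summed mesenchymal markers (3 of 5 detected) were 18.4 to 21.3 CPM in Con, 13.0 to 16.5 in the model and 3.92 to 4.68 with RES. The leukocyte and macrophage markers (2 of 4 detected in Con, 1 of 4 in the other groups) summed to 2.54 to 3.58 in Con, 3.56 to 3.79 in the model and 10.9 to 12.7 with RES. The endothelial markers (1 of 4 detected) summed to 0.162 to 0.751 CPM in Con, 1.15 to 1.45 in the model, 0.606 to 0.727 with RES and at most 1.93 in any library. The hepatocyte, mesenchymal and endothelial sums did not overlap between Con and the model. The hepatocyte, mesenchymal, leukocyte and endothelial sums did not overlap between the model and RES. The part of these shifts in the results of either comparison was not tested. All libraries come from 1 cell line, so these sums are levels of marker genes in Hep3B and not amounts of other cell types. In bulk libraries, fewer cells expressing a gene and less of its RNA per cell cannot be told apart. Con replicate 1 lay nearer to the model than the other Con libraries for several genes below, and the model comparison is therefore also given without it where that changes a call or moves a printed value by over 1.5 times. The summed level of the 37 genes was 5650 to 5886 CPM in Con, 5218 to 5284 in the model and 4329 to 4457 with RES, sums that FABP1, ACSL4, ACSL3 and ACADVL dominate.

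The 250 bases before the annotated start of 6 of these genes are printed for the places where motifs fall or where genes that moved together can be read side by side. The sequences are from RefSeq (GRCh38.p14), run 5′ to 3′ on the strand of the gene, and show motif matches in capitals. AGGTCA repeated after 1 base of any kind (DR1) was found on neither strand in the 31 members with an entry in the promoter table (all but ACOT1, DECR1, ETFDH, EHHADH, ACAA1 and VNN1), and in 0.0171% of 35116 promoters of that length. The looser repeat of AGGNCA after 1 base was found in 0.268% of promoters and in 1 member, CREB3L3, a liver transcription factor held in the endoplasmic reticulum membrane, 222 to 210 bases before its start (chr19:4153381-4153630, plus strand).
CREB3L3: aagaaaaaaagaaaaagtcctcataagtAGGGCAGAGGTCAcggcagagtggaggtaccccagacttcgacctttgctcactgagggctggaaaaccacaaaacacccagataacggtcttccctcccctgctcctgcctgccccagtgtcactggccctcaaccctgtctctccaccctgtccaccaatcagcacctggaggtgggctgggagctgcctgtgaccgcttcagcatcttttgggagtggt
A single AGGTCA on either strand was found in 12.1% of promoters and in 3 members, ACSL5, CREB3L3 (inside the match above) and FABP1, and AGGTCA repeated after 4 bases (DR4) in 0.0142% and in 0 members. In the promoter of FABP1, the abundant fatty acid binding protein of the liver cytosol (chr2:88128063-88128312, minus strand), the element lies 68 to 63 bases before the start on the opposite strand. Only exact matches to each pattern were sought, so a near match to DR1 that includes this element would not be marked.
FABP1: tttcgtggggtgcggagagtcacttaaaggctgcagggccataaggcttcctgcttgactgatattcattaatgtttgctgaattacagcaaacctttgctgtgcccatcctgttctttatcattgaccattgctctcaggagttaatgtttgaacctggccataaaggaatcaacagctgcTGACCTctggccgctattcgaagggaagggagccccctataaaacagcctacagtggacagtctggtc
A match is a run of letters and not a bound site. The promoters of PDK4 (chr7:95596517-95596766, minus strand), ANGPTL4 (chr19:8363905-8364154, plus strand) and CPT1A (chr11:68844278-68844527, minus strand) are shown as 3 of the members that rose in the model and rose further with RES. PDK4, ANGPTL4 and CPT1A hold none of the 4 motifs in this window. ACSL5 and HADHA were also called higher in both comparisons, and ACSL5 holds the single AGGTCA named above.
PDK4: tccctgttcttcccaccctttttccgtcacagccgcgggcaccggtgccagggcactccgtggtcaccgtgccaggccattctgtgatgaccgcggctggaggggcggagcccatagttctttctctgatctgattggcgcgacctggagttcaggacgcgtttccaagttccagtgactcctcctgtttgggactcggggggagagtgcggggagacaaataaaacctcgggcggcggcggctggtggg
ANGPTL4: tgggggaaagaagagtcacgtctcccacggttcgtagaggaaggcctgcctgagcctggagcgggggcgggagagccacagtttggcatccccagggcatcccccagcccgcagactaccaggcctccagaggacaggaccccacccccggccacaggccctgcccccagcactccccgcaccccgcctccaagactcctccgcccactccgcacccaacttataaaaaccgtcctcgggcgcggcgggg
CPT1A: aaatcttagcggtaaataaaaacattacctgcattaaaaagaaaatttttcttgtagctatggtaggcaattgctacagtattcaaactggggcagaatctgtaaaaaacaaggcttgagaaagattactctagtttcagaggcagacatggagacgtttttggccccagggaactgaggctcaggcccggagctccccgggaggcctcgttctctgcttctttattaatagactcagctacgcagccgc
HADHA and HADHB, the α and β subunits of the mitochondrial trifunctional protein, start on opposite strands of chromosome 2. Their annotated starts, 26244632 and 26244939, have 306 bases between them. The window before HADHB (chr2:26244689-26244938, plus strand) therefore also lies before HADHA.
HADHB: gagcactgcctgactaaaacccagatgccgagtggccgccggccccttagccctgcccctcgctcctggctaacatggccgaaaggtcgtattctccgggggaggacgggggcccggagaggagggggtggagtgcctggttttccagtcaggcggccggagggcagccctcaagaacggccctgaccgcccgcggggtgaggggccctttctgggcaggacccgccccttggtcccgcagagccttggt

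Levels spanned more than 3 orders of magnitude. Per kilobase of the canonical transcript, FABP1 was the most abundant member in the model at 1802 CPM per kb, followed by ACADVL, the very-long-chain acyl-CoA dehydrogenase, at 347.8, ACSL4 at 180.9, ECHS1 at 106.5 and ETFA at 99.0. At the other end stood VNN1 at 0.684, ACSL5 at 0.472 and CD36 at 0.330 CPM per kb. Of the 12 enzymes of mitochondrial β-oxidation, ACADS was the lowest at 20.3 CPM per kb. RES moved CPT1A from 34.1 to 78.4 CPM per kb and BDH1 from 10.9 to 1.26.

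**Figure D1:**
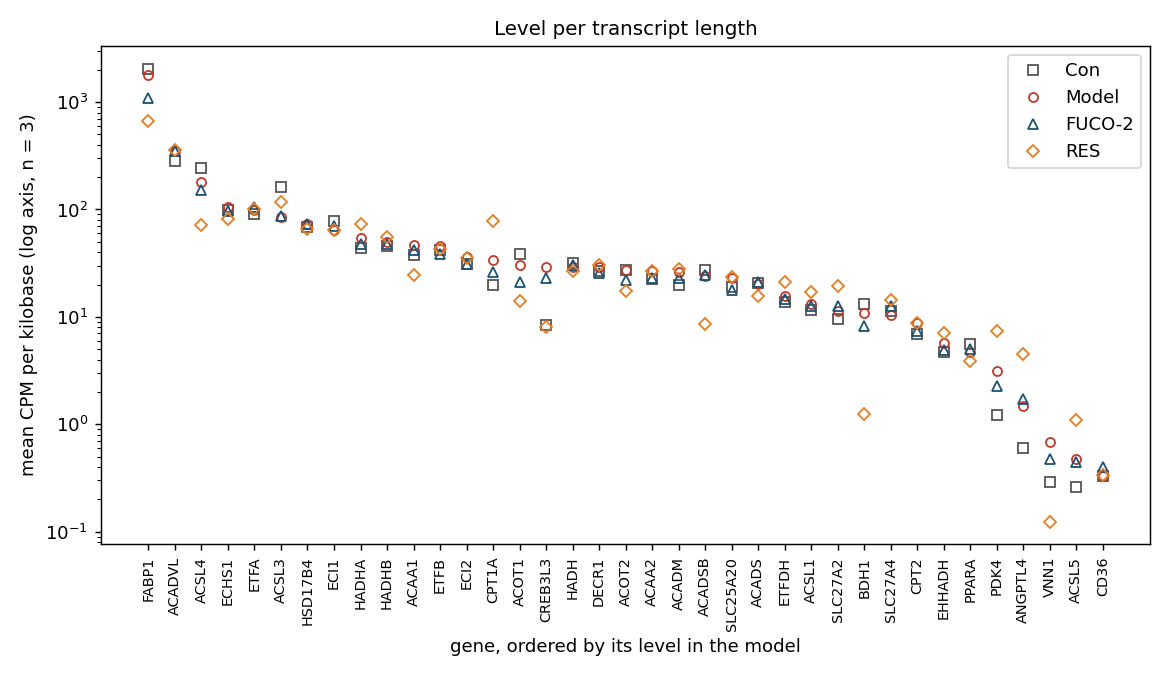
Mean level of the 37 genes in CPM per kilobase of canonical transcript (log axis, n = 3 libraries) in Con, the model, FUCO 2 μM and RES, ordered by the level in the model. Most genes keep nearly the same height in the 4 groups, while CPT1A, PDK4, ANGPTL4 and ACSL5 are highest and BDH1, VNN1, ACADSB and FABP1 lowest with RES.

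Against Con, the model had 11 of the 37 genes higher and 4 lower (edgeR's quasi-likelihood test, Benjamini-Hochberg adjusted p under 0.05 over all 14557 genes). Over all tested genes, 8.43% were higher and 9.12% lower. The 11 were ACSL5, CPT1A, ACADVL, ACADM, HADHA, ACAA2, ACAA1, CREB3L3, PDK4, ANGPTL4 and VNN1, and the 4 were ACSL3, ACSL4, ACOT1 and PPARA. Genes that also changed by more than 1 on the log2 scale in either direction (called DEGs here) numbered 4 of the members against 1.95% of all genes. All 4 were higher and belonged to the subgroup of PPARA, its targets and ketone metabolism. Without Con replicate 1, ACSL3 (-1.10, adjusted p = 8.08e-11) and ACSL5 (1.29, adjusted p = 6.82e-03) were DEGs as well, ACSL3 being lower. The median log2 fold change was 0.13 over the members and 0.00 over all genes. Without Con replicate 1 the count of higher members was 16, with ACSL1, SLC27A2, CPT2, SLC25A20 and ECI2 added, and it was 7 without Con replicate 2, Con replicate 3 or Model replicate 2.

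At 0.5 μM FUCO, 0 members were higher and 1, FABP1, was lower than in the model, where 0.289% and 1.16% of all genes were, and 0 were DEGs (0.268% of all genes). At an unadjusted p under 0.05, 1 member was higher and 7 lower, and DESeq2 called 0 higher and 2 lower. At 1 μM, 0 members were higher and 1, ACSL1, was lower, where 0.893% and 2.32% of all genes were, with 0 DEGs (0.495%). Unadjusted, 1 was higher and 4 were lower, and DESeq2 called 0 and 1. At 2 μM, SLC27A4 was higher and 8 members were lower: FABP1, ACSL4, ACOT1, ACOT2, CPT1A, SLC25A20, ACAA2 and PDK4. Over all genes, 10.8% were higher and 9.71% lower at this dose, and 1.6% were DEGs against 0 of the members. Unadjusted, 1 member was higher and 13 lower, and DESeq2 called 1 and 9. The members' median log2 fold change was -0.03, -0.01 and -0.14 in order of dose, beside 0.00, -0.00 and 0.01 for all genes. The count of 8 fell to 4 without Model replicate 3 or FUCO-2 replicate 2 and to 5 without Model replicate 2 or FUCO-2 replicate 1.

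With RES, 10 members were higher and 12 lower than in the model, beside 24.4% and 25.1% of all genes. DEGs were 11 of the 37, where 9.91% of all genes were DEGs. The higher members were SLC27A2, SLC27A4, ACSL1, ACSL3, ACSL5, CPT1A, HADHA, ETFDH, PDK4 and ANGPTL4. The lower ones were FABP1, ACSL4, ACOT1, ACOT2, ACADS, ACADSB, ECHS1, ACAA1, PPARA, CREB3L3, VNN1 and BDH1. The members' median log2 fold change and that of all genes were both 0.00. Of these 22 calls, 20 held under all 23 alternative fits, and the other 2 were ACADS and PPARA. The comparisons of FUCO and RES with the model share the 3 model libraries.

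**Figure D2:**
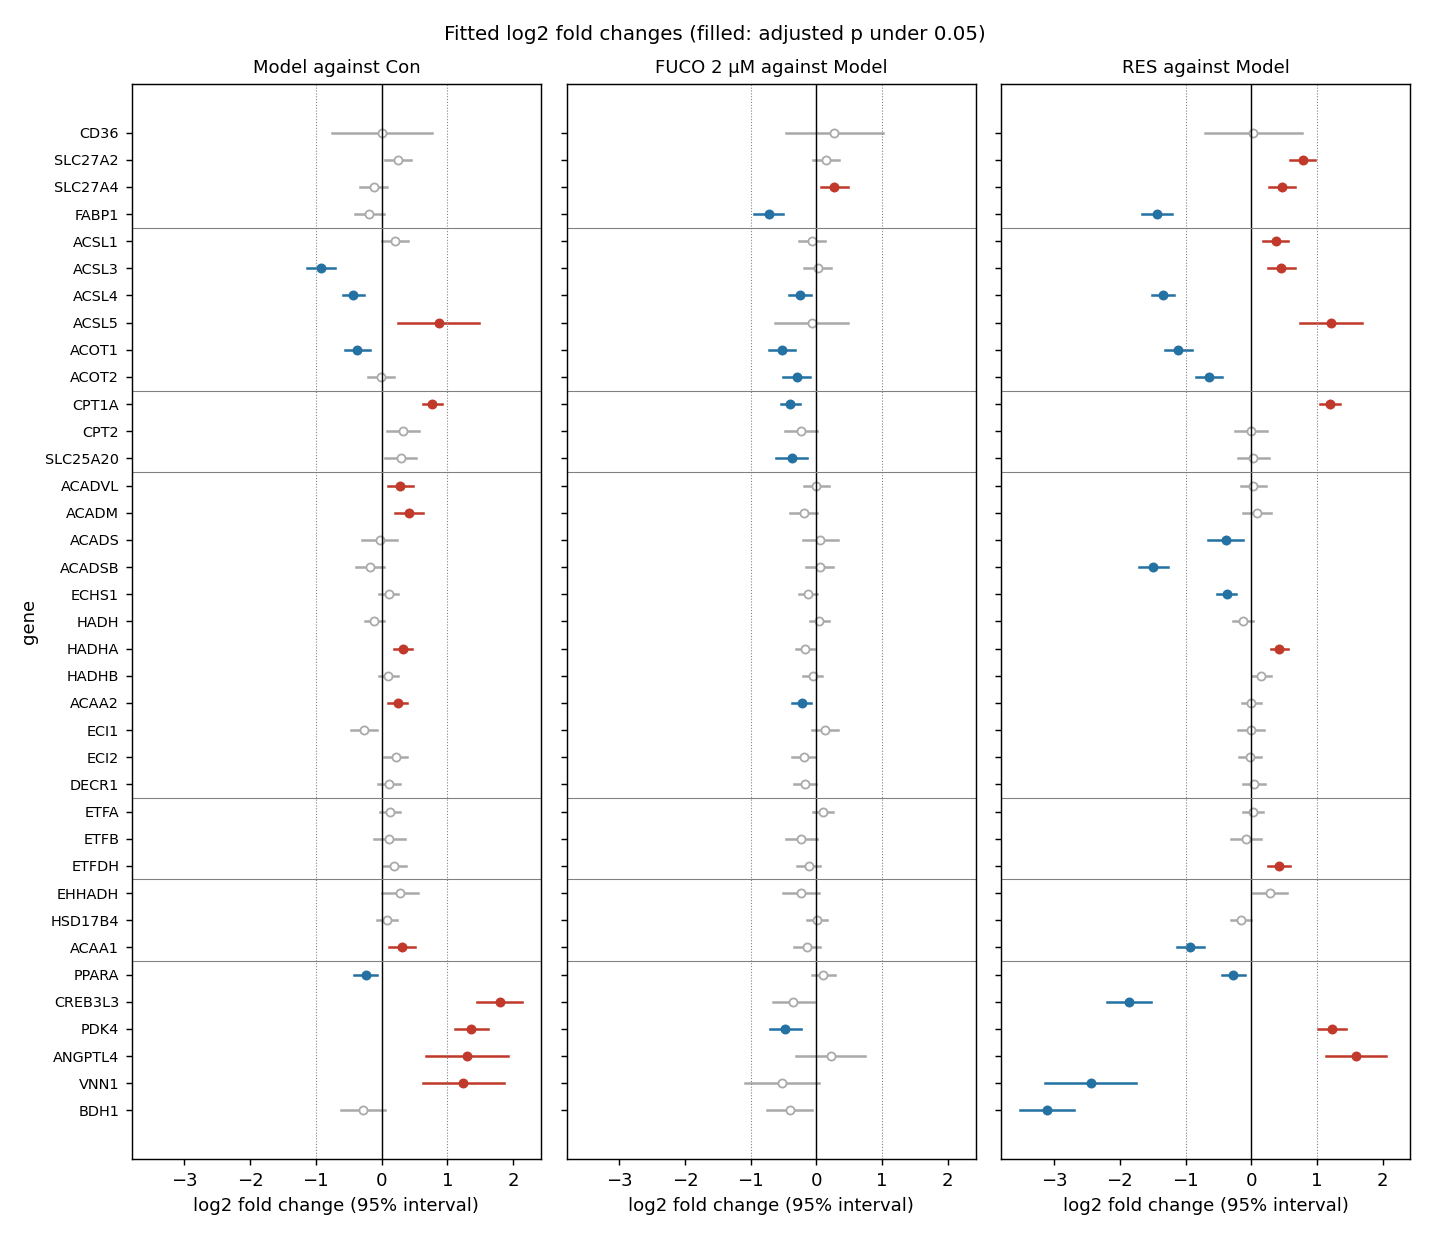
Fitted log2 fold changes with 95% intervals of the 37 genes for the model against Con, FUCO 2 μM against the model and RES against the model, with subgroups divided by lines. Filled points passed adjusted p under 0.05 (red higher, blue lower), and the dotted lines mark log2 fold changes of -1 and 1. The RES panel holds points from -3.11 for BDH1 to 1.60 for ANGPTL4, whereas every point at 2 μM FUCO lies within -0.73 and 0.28.

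Among the uptake and binding genes, FABP1 fell at 0.5 and 2 μM FUCO and further with RES, while SLC27A2 and SLC27A4 rose with RES. In FABP1, Con gave 1266, 927 and 890.3 CPM, the model 923, 904 and 881, FUCO 693, 691 and 644 (0.5 μM), 702, 701 and 840.2 (1 μM) and 475, 562 and 599.9 (2 μM), and RES 313, 321 and 366. All libraries of each FUCO dose lay below all model libraries, and all RES libraries below all FUCO libraries. Relative to the model, it changed on the log2 scale by -0.42 ± 0.11 (SE) at 0.5 μM (adjusted p = 0.0479), -0.27 ± 0.11 at 1 μM (adjusted p = 0.183), -0.73 ± 0.11 at 2 μM (adjusted p = 4.07e-05) and -1.44 ± 0.11 with RES (adjusted p = 8.81e-11). The call at 0.5 μM was lost in 11 of 23 alternatives, all of them fits without 1 library, among them every fit without a model or 0.5 μM library (adjusted p 0.11 to 0.175), those without FUCO-1 replicate 1 or 2, FUCO-2 replicate 2, and RES replicate 1 or 2. Con and the model overlapped (-0.19 ± 0.11, adjusted p = 0.249), and without Con replicate 1, the highest of the 18 libraries, their difference was -0.01.

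CD36, the membrane fatty acid translocase, which the study also followed in other experiments, was the scarcest member per length at 1 and 2 μM FUCO and in the model group, with ACSL5, VNN1 or both below it in the other groups. The CD36 libraries read 2.95, 0.955 and 0.649 CPM for Con, 1.81, 1.06 and 1.68 for the model, 1.81, 1.73 and 1.56, then 2.13, 1.42 and 2.06, then 1.67, 1.49 and 2.37 for FUCO in order of dose, and 1.57, 1.18 and 1.87 for RES. Con replicates 1, 2 and 3 held 51, 16 and 12 counts. The groups overlapped in each of the 5 comparisons. CD36 differed by 0.01 on the log2 scale between the model and Con (95% interval -0.75 to 0.77), and by 0.16, 0.30 and 0.28 from the model at the rising FUCO doses (95% intervals -0.58 to 0.90, -0.42 to 1.03 and -0.46 to 1.01). With RES it was 0.03 (-0.70 to 0.77). No change of CD36 mRNA was called in these libraries, and the intervals still admit falls of the sizes their lower bounds give. Con replicate 1 held the highest value of all 18 libraries, and without it the model difference was 0.92 (adjusted p = 0.0552).

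The fatty acid transport proteins, which also act as acyl-CoA synthetases, went the other way from FABP1 with RES. SLC27A2 rose from 26.9 ± 1.9 CPM in the model to 46.3 ± 0.4 (mean ± SD, n = 3), a log2 fold change of 0.78 ± 0.09 (adjusted p = 1.61e-07). SLC27A4 rose from 33.8 ± 0.6 to 46.8 ± 1.0, by 0.47 ± 0.10 (adjusted p = 2.83e-04). SLC27A4 also passed at 2 μM FUCO at 0.27 ± 0.10 (adjusted p = 0.0484), a call lost in 14 of 23 alternatives, including RLE factors (adjusted p = 0.0537), the fit of 2 groups (0.0671), the replicate block (0.0523) and the fits without any 1 of the model or RES libraries, FUCO-0.5 replicate 1 or 2, FUCO-1 replicate 2, or FUCO-2 replicate 1 or 2 (0.0511 to 0.276), with a value of 0.16 without FUCO-2 replicate 1.

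The long-chain acyl-CoA synthetases, which trap fatty acids as CoA esters, split by member. ACSL4 favours arachidonic acid. By library, ACSL4 stood at 1094, 1260.0 and 1217 CPM (Con), 856, 891 and 907 (model), 967, 1049 and 845 (0.5 μM FUCO), 912, 895 and 811 (1 μM), 734, 734 and 766 (2 μM) and 377, 341 and 329.8 (RES). The Con libraries were the highest and the RES libraries the lowest, with no overlap between them and any other group. ACSL4 changed by -0.43 ± 0.08 from Con to the model (adjusted p = 4.76e-04), -0.25 ± 0.08 at 2 μM FUCO against the model (adjusted p = 0.0283) and -1.34 ± 0.08 with RES (adjusted p = 1.29e-12). The 2 μM call was lost without Model replicate 2 or 3 or FUCO-2 replicate 1 or 2 (adjusted p 0.0546 to 0.097). ACSL3, which acts at the endoplasmic reticulum and on growing lipid droplets, fell from 908 ± 196 CPM in Con to 478 ± 13 in the model (log2 fold change -0.93 ± 0.10, adjusted p = 6.42e-07) and stood at 657 ± 20 with RES, 0.46 ± 0.10 above the model (adjusted p = 5.70e-04). In Con replicate 1 it was at 684 CPM, below the 993 and 1048 of the other Con libraries. Without that library the log2 fold change of ACSL3 in the model was -1.10.

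ACSL1 and ACSL5 were higher with RES. ACSL1 is the main synthetase of liver and fat. For ACSL1 the values were 47.3, 41.9 and 38.9 CPM (Con), 44.03, 57.2 and 46.5 (model), 39.8, 46.5 and 39.6 (0.5 μM FUCO), 38.3, 40.8 and 36.9 (1 μM FUCO), 44.2, 50.6 and 45.7 (2 μM FUCO) and 64.0, 64.6 and 62.4 (RES). RES lay above every other library, by 0.37 ± 0.09 on the log2 scale over the model (adjusted p = 1.87e-03). At 1 μM FUCO, ACSL1 was lower than in the model (log2 fold change -0.35 ± 0.09, adjusted p = 0.0419), with no such call at 2 μM (-0.07, 95% interval -0.27 to 0.12). That call was lost in 10 of 23 alternatives, namely the fits without Model replicate 2 (-0.23, adjusted p = 0.317) or 3, any 1 FUCO-1 or RES library, Con replicate 2 or FUCO-0.5 replicate 1. ACSL5, a synthetase of mitochondria and endoplasmic reticulum, was scarce. In ACSL5, Con gave 1.27, 0.836 and 0.433 CPM, the model 1.48, 1.61 and 1.52, FUCO 1.65, 0.993 and 0.949 (0.5 μM), 1.63, 1.42 and 1.43 (1 μM) and 1.73, 1.38 and 1.27 (2 μM), and RES 4.04, 3.55 and 3.12. Its rise with RES was 1.22 ± 0.23 (adjusted p = 1.01e-04). Its rise in the model, 0.87 ± 0.30 (adjusted p = 0.0463), was lost in 13 of 23 alternatives, among them DESeq2 (adjusted p = 0.0545), the fit of 2 groups (0.0927) and the fits without any 1 Model library, Con replicate 2 or Con replicate 3, with a value of 0.54 without Con replicate 3. Without any 1 FUCO-1 library, FUCO-2 replicate 2, or RES replicate 1 or 2 it was lost by a small margin (adjusted p 0.0508 to 0.0559).

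The acyl-CoA thioesterases reverse activation, ACOT1 in the cytosol and ACOT2 in mitochondria. The ACOT1 libraries read 71.9, 63.8 and 60.9 CPM for Con, 52.9, 48.4 and 51.1 for the model, 42.0, 36.9 and 40.5, then 45.6, 40.0 and 53.5, then 34.7, 32.2 and 39.0 for FUCO in order of dose, and 22.0, 24.9 and 23.8 for RES. Con was highest and RES lowest without overlap with any other group. On the log2 scale, ACOT1 changed by -0.37 ± 0.10 from Con to the model (adjusted p = 8.13e-03), -0.53 ± 0.10 at 2 μM (adjusted p = 4.41e-04) and -1.11 ± 0.10 with RES (adjusted p = 1.51e-09), and at 0.5 μM it was -0.35 ± 0.10 (adjusted p = 0.072). ACOT2 also fell with RES, by 0.64 ± 0.10 on the log2 scale (adjusted p = 7.65e-06), and at 2 μM FUCO (-0.30 ± 0.10, adjusted p = 0.0318), the latter call being lost without FUCO-2 replicate 2 or 3 or any 1 Model library (adjusted p 0.0516 to 0.176). The 2 transcripts share 42.1% and 43.8% of their 75-base words with each other, and how reads matching both were counted is not stated, so their separate values are uncertain.

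In the carnitine shuttle, CPT1A, the rate-limiting outer membrane transferase, rose in the model and again with RES but was lower at 2 μM FUCO. By library, CPT1A stood at 103, 106 and 105 CPM (Con), 182, 182 and 173 (model), 164, 144 and 155 (0.5 μM FUCO), 158, 141 and 171 (1 μM), 137, 132 and 139 (2 μM) and 434, 397 and 401 (RES). Every FUCO library lay between the Con and the model libraries. CPT1A rose by 0.77 ± 0.07 on the log2 scale from Con to the model (adjusted p = 7.27e-08), changed by -0.39 ± 0.07 at 2 μM FUCO (adjusted p = 3.94e-04) and rose by 1.20 ± 0.07 with RES (adjusted p = 1.13e-12), and these 3 calls held in all 23 alternatives. At 2 μM it was still 0.38 ± 0.07 above Con (adjusted p = 4.19e-04). At 0.5 and 1 μM the values against the model were -0.21 and -0.19 (adjusted p = 0.193 and 0.154). SLC25A20, the translocase, fell from 41.0 ± 2.6 CPM in the model to 31.6 ± 4.4 at 2 μM (log2 fold change -0.38 ± 0.12, adjusted p = 0.0217), a call lost without FUCO-2 replicate 1 or 2 or Model replicate 3 (adjusted p 0.056, 0.119 and 0.102), and with RES it was at 41.9 ± 3.4. CPT2, the inner membrane transferase, passed in none of the 5 comparisons, with values of 0.32 in the model (adjusted p = 0.0616, and 0.47 with adjusted p = 5.81e-03 without Con replicate 1), -0.23 at 2 μM and -0.00 with RES.

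The 12 enzymes of mitochondrial β-oxidation had small fold changes in the model (log2 -0.27 to 0.42) and with FUCO. Against Con 4 of the 12 were higher and 0 lower, where 8.43% and 9.12% of all genes were. The median log2 fold change of the 12 was 0.11. ACADM, the medium-chain dehydrogenase, rose from 44.5 ± 8.3 to 59.6 ± 1.3 CPM (0.42 ± 0.10, adjusted p = 5.78e-03), HADHA from 128 ± 7 to 160 ± 3 (0.33 ± 0.07, adjusted p = 1.14e-03), ACADVL from 623 ± 122 to 760 ± 34 (0.29 ± 0.09, adjusted p = 0.0368, and 0.46 without Con replicate 1) and ACAA2, the last enzyme of the spiral, from 66.2 ± 1.1 to 78.7 ± 3.9 (0.25 ± 0.07, adjusted p = 0.0155). The ACADM call was lost without Con replicate 2 (adjusted p = 0.0552), the ACAA2 call without Con replicate 3 or Model replicate 2 (0.0661 and 0.086), and the ACADVL call in the fit of 2 groups (0.0786) and without Con replicate 2 or 3 or any 1 Model library (0.0564 to 0.228). At 2 μM FUCO only ACAA2 of the 12 passed (67.4 ± 6.1 CPM, -0.22 ± 0.07, adjusted p = 0.0262), in 17 of 23 alternatives, the exceptions being the fit of 2 groups (0.0756), no filter (0.0899) and the fits without FUCO-2 replicate 1 or 2 or Model replicate 2 or 3 (0.0675 to 0.119). ACAA2 shares 16.1% of its 75-base words with another annotated gene, so the limit given for ACOT1 and ACOT2 also applies to its values. HADH, ECI1, ECI2 and DECR1, which handle the hydroxyacyl step and unsaturated chains, passed in none of the 5 comparisons, the nearest being ECI1 in the model (-0.27 ± 0.10, adjusted p = 0.054).

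ACADSB fell with RES. It is the short and branched-chain acyl-CoA dehydrogenase and acts mainly in isoleucine breakdown. For ACADSB the values were 155, 165 and 154 CPM (Con), 147, 126 and 148 (model), 158, 152 and 117 (0.5 μM FUCO), 178, 150.3 and 154 (1 μM FUCO), 137, 134 and 163 (2 μM FUCO) and 52.3, 53.1 and 44.3 (RES). No library of another group came near the RES values. The log2 fold change with RES was -1.49 ± 0.11 (adjusted p = 2.67e-11), and at 2 μM FUCO it was 0.05 (95% interval -0.16 to 0.26). ACADS, the short-chain dehydrogenase (-0.39 ± 0.13, adjusted p = 0.0165), and ECHS1, the short-chain hydratase (-0.37 ± 0.07, adjusted p = 8.39e-05), also fell with RES, the former call being lost without Model replicate 3, RES replicate 1 or RES replicate 3 (adjusted p 0.0506 to 0.0668). ACADVL and ACADM had values of 0.03 and 0.09 with RES, with 95% intervals of -0.16 to 0.22 and -0.12 to 0.30.

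The divergent pair HADHA and HADHB, which encode subunits of the same complex, were not equal in their calls. HADHA rose with RES from 160 ± 3 to 216 ± 7 CPM (0.43 ± 0.07, adjusted p = 7.64e-06), and HADHB stood at 98.6 ± 3.4 in the model and 110 ± 3 with RES (0.16 ± 0.07, adjusted p = 0.0705). In the model the values were 0.33 for HADHA and 0.10 for HADHB (adjusted p = 0.352, and 0.058 without Con replicate 1). Whether the 2 fold changes differ was not tested.

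Of the electron transfer genes, ETFDH, which passes electrons from the dehydrogenases to ubiquinone, was the only 1 of 3 with a call. In ETFDH, Con gave 46.2, 39.4 and 42.6 CPM, the model 52.7, 47.0 and 46.9, FUCO 48.1, 47.9 and 42.1 (0.5 μM), 48.4, 49.3 and 42.4 (1 μM) and 42.0, 44.3 and 49.1 (2 μM), and RES 65.5, 64.8 and 66.0. The RES libraries lay above the rest, at 0.42 ± 0.08 over the model (adjusted p = 1.67e-04). In the annotation ETFDH overlaps PPID, ACSL5 overlaps ZDHHC6, CPT2 overlaps CZIB, ACAA1 overlaps DLEC1, HADHA overlaps GAREM2, EHHADH overlaps EHHADH-AS1 and ACADVL overlaps DLG4. ACOT1 overlaps HEATR4 and RIOX1, and ACOT2 overlaps HEATR4. Some other members overlap further annotated genes, and whether counting used the strand is not stated. ETFA and ETFB, the subunits of the electron transfer flavoprotein, passed in none of the 5 comparisons and had 0.02 and -0.08 with RES. ETFB shares 8.31% of its 75-base words with another annotated gene.

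In the peroxisome, ACAA1, the thiolase, was the member that changed. The ACAA1 libraries read 71.1, 60.01 and 60.9 CPM for Con, 83.4, 76.8 and 77.7 for the model, 84.9, 70.7 and 74.3, then 75.1, 79.8 and 98.0, then 79.6, 63.0 and 73.1 for FUCO in order of dose, and 41.8, 40.5 and 42.6 for RES. It was higher in the model by 0.31 ± 0.10 (adjusted p = 0.031), a call lost without Con replicate 2 or 3 or any 1 Model library (adjusted p 0.0545 to 0.138). With RES it fell below every other library, by 0.93 ± 0.10 on the log2 scale (adjusted p = 3.58e-08). The L- and D-bifunctional enzymes EHHADH and HSD17B4 passed in none of the 5 comparisons, with 0.28 (95% interval 0.02 to 0.55, adjusted p = 0.0686) and -0.15 (95% interval -0.30 to -0.00, adjusted p = 0.0866) for RES.

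The subgroup of PPARA, its targets and ketone metabolism held the 4 DEGs of the model, with 1 of its 6 genes lower and 1 not called. Members placed in other subgroups by role may also be PPARA targets, so this count does not speak for such targets as a class. By library, PPARA stood at 52.7, 60.9 and 55.0 CPM (Con), 46.8, 48.6 and 47.0 (model), 49.99, 49.5 and 44.1 (0.5 μM FUCO), 57.6, 50.8 and 57.4 (1 μM), 53.1, 50.8 and 49.5 (2 μM) and 42.1, 40.9 and 34.9 (RES). The receptor mRNA was thus lower in the model than in Con (-0.24 ± 0.08, adjusted p = 0.042) and lower with RES than in the model (-0.27 ± 0.08, adjusted p = 8.50e-03). The first call was lost with no filter on low counts (adjusted p = 0.0575) and without Con replicate 2 or 3, any 1 Model library or RES replicate 2 (0.0512 to 0.209), and the second without RES replicate 3 (0.078).

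PDK4, the kinase that shuts pyruvate dehydrogenase and so spares glucose, rose in the model and again with RES. For PDK4 the values were 4.05, 4.48 and 4.65 CPM (Con), 11.1, 11.4 and 11.5 (model), 10.6, 8.16 and 8.37 (0.5 μM FUCO), 9.51, 8.63 and 8.05 (1 μM FUCO), 7.49, 8.94 and 8.10 (2 μM FUCO) and 27.1, 26.6 and 26.4 (RES). All FUCO libraries lay between Con and the model. PDK4 changed on the log2 scale by 1.37 ± 0.12 from Con to the model (adjusted p = 4.87e-08), -0.33 and -0.38 at 0.5 and 1 μM FUCO (adjusted p = 0.199 and 0.0666), -0.47 ± 0.11 at 2 μM (adjusted p = 4.57e-03) and 1.23 ± 0.10 with RES (adjusted p = 4.87e-10). ANGPTL4 is a secreted inhibitor of lipoprotein lipase. In ANGPTL4, Con gave 1.39, 1.37 and 0.649 CPM, the model 2.80, 2.73 and 2.82, FUCO 4.01, 3.50 and 4.30 (0.5 μM), 3.27, 2.51 and 3.48 (1 μM) and 5.13, 2.18 and 2.43 (2 μM), and RES 9.53, 8.02 and 7.70. It rose by 1.30 ± 0.31 in the model (adjusted p = 3.88e-03) and by 1.60 ± 0.22 with RES (adjusted p = 1.84e-06), and had no call with FUCO. At 2 μM its value was 0.22 (adjusted p = 0.594), and -0.27 without FUCO-2 replicate 1, the library at 5.13 CPM.

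CREB3L3, which partners PPARA in the fasting response, and VNN1, a pantetheinase of the coenzyme A salvage route, rose in the model and fell with RES. The CREB3L3 libraries read 29.6, 17.6 and 18.3 CPM for Con, 80.2, 65.4 and 82.6 for the model, 74.0, 85.2 and 69.6, then 76.3, 62.7 and 87.3, then 67.2, 45.6 and 66.7 for FUCO in order of dose, and 22.4, 21.5 and 18.9 for RES. The RES libraries thus fell within the range of Con, and the model and the FUCO groups lay above both. The model rise was 1.80 ± 0.17 (adjusted p = 4.97e-08), 2.08 without Con replicate 1, and the RES change against the model was -1.86 ± 0.16 (adjusted p = 1.16e-09). RES against Con was -0.06 (95% interval -0.42 to 0.29), and the value at 2 μM FUCO was -0.35 ± 0.15 (adjusted p = 0.113). By library, VNN1 stood at 1.21, 1.55 and 0.595 CPM (Con), 1.75, 3.34 and 2.82 (model), 1.87, 2.82 and 2.01 (0.5 μM FUCO), 1.68, 2.29 and 2.11 (1 μM), 1.27, 1.92 and 2.31 (2 μM) and 0.444, 0.431 and 0.560 (RES). It rose by 1.25 ± 0.30 in the model (adjusted p = 4.72e-03), and with RES it was at 8 to 12 counts a library, a change of -2.44 ± 0.33 (adjusted p = 1.57e-06).

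BDH1, the mitochondrial enzyme that turns acetoacetate into β-hydroxybutyrate, had the largest change of the 37 in any of the 5 comparisons. For BDH1 the values were 56.0, 46.7 and 37.05 CPM (Con), 42.7, 34.7 and 37.8 (model), 37.3, 38.6 and 27.0 (0.5 μM FUCO), 41.7, 33.0 and 44.7 (1 μM FUCO), 32.0, 23.4 and 31.5 (2 μM FUCO) and 5.53, 4.90 and 2.85 (RES). The RES libraries were far below all others. The change with RES was -3.11 ± 0.20 (adjusted p = 3.51e-12), and -2.70 ± 0.20 against 2 μM FUCO (adjusted p = 8.54e-11). At 2 μM FUCO against the model it was -0.41 ± 0.17 (adjusted p = 0.0825), and in the model against Con -0.28 ± 0.16 (adjusted p = 0.256), or -0.13 without Con replicate 1.

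**Figure D3:**
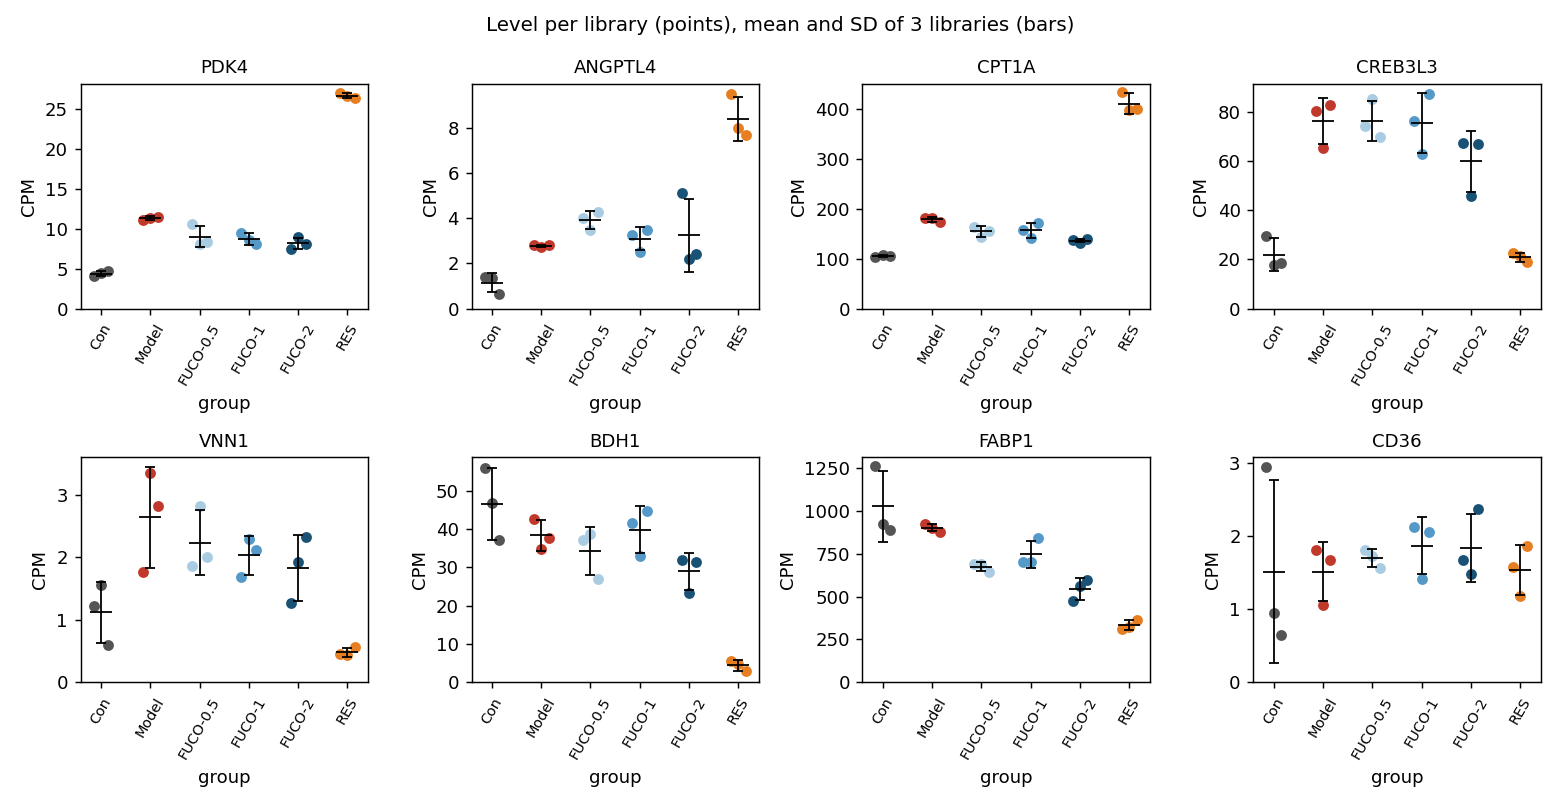
Level in CPM of 8 genes in each library (points) of the 6 groups, with the mean and SD of 3 libraries in black and axes from 0. PDK4, ANGPTL4 and CPT1A step up from Con to the model and again to RES, CREB3L3 and VNN1 rise in the model and are low with RES, BDH1 and FABP1 are lowest with RES, and the CD36 groups overlap.

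**Figure D4:**
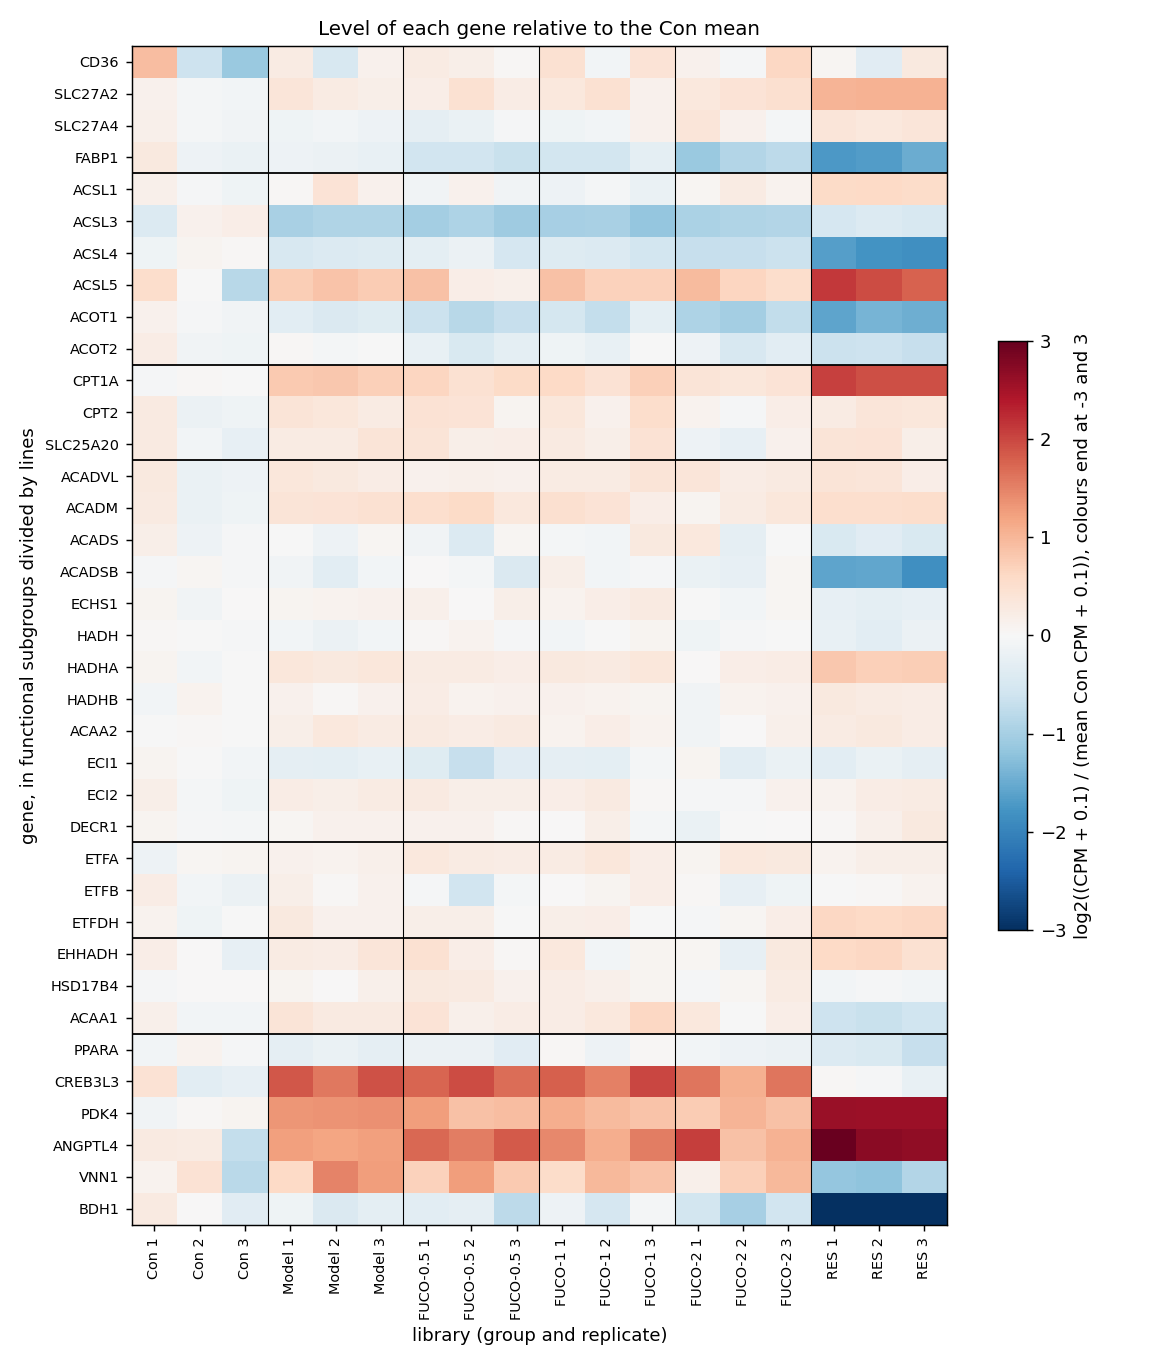
The 37 genes (rows, subgroups divided by lines) in the 18 libraries (columns), coloured by log2 of the level over the Con mean after adding 0.1 CPM to both. Colours end at -3 and 3. The mitochondrial and electron transfer rows stay pale, ACADSB with RES being the strongest exception, and PDK4 and ANGPTL4 are above Con in all 15 FFA-treated libraries.

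Set against each other, the FUCO doses differed little in these genes. Between 1 and 0.5 μM, 0 of the 37 passed (edgeR), with 5 higher and 0 lower at an unadjusted p under 0.05, 0 by DESeq2, and 0.00687% of all genes called. Between 2 and 1 μM, 6.3% of all genes passed, 4.07% being higher and 2.23% lower at 2 μM. Of the members 3 passed, all lower at 2 μM: FABP1 (-0.45 ± 0.11, adjusted p = 0.0115), ACOT1 (-0.39 ± 0.10, adjusted p = 0.0157) and SLC25A20 (-0.39 ± 0.11, adjusted p = 0.0436). Without FUCO-1 replicate 3 the count was 0, and without FUCO-2 replicate 2 it was 1. DESeq2 called 5. The SLC25A20 call was lost in 10 of 23 alternatives, the ACOT1 call in 3 and the FABP1 call in 1. The FABP1 value at 1 μM rests in part on FUCO-1 replicate 3, which at 840 CPM stood above its group's 701 and 702.

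RES and 2 μM FUCO differed in 27 of the 37, where 48.4% of all genes differed (22.5% higher and 26% lower with RES). RES was higher for 15 of them, led by PDK4 (1.71 ± 0.11, adjusted p = 4.00e-12), CPT1A (1.59 ± 0.07, adjusted p = 2.16e-14), ANGPTL4 (1.38 ± 0.22, adjusted p = 1.17e-05) and ACSL5 (1.29 ± 0.23, adjusted p = 6.39e-05), and lower for 12, led by BDH1, VNN1 (-1.92 ± 0.36, adjusted p = 9.17e-05), ACADSB (-1.54 ± 0.11, adjusted p = 2.17e-11) and CREB3L3 (-1.51 ± 0.16, adjusted p = 5.37e-08). Of the 27 calls, 22 held in all 23 alternatives, and the other 5 (ACADM, ACADS, HADHB, ACAA2 and DECR1) were each lost without FUCO-2 replicate 1 (adjusted p 0.0627 to 0.12). By subgroup, RES was higher for 5 of the 12 mitochondrial enzymes and lower for 3, and higher for 2 of the 3 carnitine shuttle genes. The 3 of 12 that were lower are near the 26% of all genes. CPT1A and PDK4 are the members that were lower than the model at 2 μM FUCO and higher than it with RES. FABP1, ACSL4, ACOT1 and ACOT2 were lower than the model in both, and lower with RES than at 2 μM (FABP1 -0.71, ACSL4 -1.09, ACOT1 -0.59 and ACOT2 -0.34 on the log2 scale, adjusted p at most 6.07e-03).

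Of 80 further genes of the same pathways, 70 were tested. In the model 7 of the 70 were higher and 5 lower, near the 8.43% and 9.12% of all genes, with a median log2 fold change of 0.07. At 0.5 and 1 μM FUCO, 0 passed with edgeR, while at an unadjusted p under 0.05 there were 3 higher and 3 lower at 0.5 μM and 6 higher and 4 lower at 1 μM. DESeq2 called 0 higher and 1 lower at 0.5 μM and 1 each way at 1 μM. At 2 μM, 0 were higher and 6 lower (5 and 11 unadjusted, 0 and 7 by DESeq2), where 10.8% and 9.71% of all genes were. With RES, 9 were higher and 29 lower, where 24.4% and 25.1% of all genes were, with a median of -0.16. The lipid droplet coat PLIN2 rose in the model by 1.09 ± 0.08 (adjusted p = 1.48e-09) and was lower than in the model at 2 μM FUCO (-0.39 ± 0.08, adjusted p = 9.38e-04), and with RES it stood at -0.10 (adjusted p = 0.325). The phosphatidate phosphatase LPIN1 fell in the model (-1.22 ± 0.14, adjusted p = 9.90e-07). With RES, the coactivator PPARGC1B rose by 2.26 ± 0.36 (adjusted p = 1.20e-05), from 0.439 to 2.12 CPM, and RXRA, the partner of PPARA and of the thyroid hormone receptors on DNA, fell by 1.13 ± 0.10 on the log2 scale (adjusted p = 1.60e-09). A further 6 genes were DEGs with RES, all lower: ACOT12 (-1.85), which cleaves acetyl-CoA, OXCT1 (-1.98), which activates ketone bodies for use, and the acyl-CoA synthetases ACSL6 (-2.12), ACSM5 (-1.75), ACSM2B (-1.07) and ACSM2A (-1.003). All of these but ACOT12 had a mean of at most 1.11 CPM in the model, and ACSM2A and ACSM2B are near-identical copies whose separate counts are uncertain.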

How the data were processed

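Paired-end reads of polyadenylated RNA were trimmed (fastp), mapped (STAR, GRCh38.p14) and counted per gene (featureCounts) by the authors, who deposited the counts unnormalized in 1 table of 18 libraries. Strand setting and treatment of reads with several matches are not given in the sources used here. Libraries were assigned to 6 groups of 3 by their titles, since the description label gives all 18 a name that begins with con. The study's methods call the 3 of each group biological replicates.

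Counts were tested in R 4.3.3 with edgeR 4.0.16 (filterByExpr with minimum count 10 and minimum total 15, TMM factors, prior count 0.125). A quasi-likelihood model with a mean for each group was fitted to all 18 libraries together, with Benjamini-Hochberg adjustment over 14557 genes. SE is that of the fitted log2 fold change and 95% intervals are from the same fit. CPM were scaled with TMM factors. Reads carry no molecular identifiers, so counting error is only part of the spread. Alternatives were DESeq2 1.42.0, a fit of the 2 groups compared, RLE factors, no filter, a replicate block, and leaving out each of the 18 libraries. The fit was tested on simulated counts.

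The members, the pathway list and the rule for genes given by library were chosen with earlier results of these data known. That rule took members that were DEGs in any of the 5 comparisons with Con or the model, the most changed member called in each subgroup, and CD36, FABP1, CPT1A, ACSL1 and PPARA, which the study measured otherwise. Pathway genes were named when DEGs, except for 1 result that is not reported here. Transcript lengths are of the Ensembl canonical transcripts of GENCODE v44, and promoters are from RefSeq's GRCh38.p14 table.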

Additional observations from a re-analysis of the deposited data

How the results depend on the processing

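Of 32 called log2 fold changes of the genes given by library, 25 passed the threshold in all 23 alternatives and 0 changed sign. Of 48 values that were not called, 16 changed sign in some alternative and 7 passed in some. No alternative moved the median of all genes by over 0.1 on the log2 scale. Counts of members moved by more than 1.5 times as follows. DESeq2 gave 2 lower at 0.5 μM FUCO and 5 differing between 2 and 1 μM, no filter on low counts gave 2 lower at 0.5 μM, 2 lower at 1 μM and 5 differing between 2 and 1 μM, the fit of 2 groups gave 3 lower at 0.5 μM, 3 lower at 1 μM and 0 higher at 2 μM, and RLE factors gave 0 higher at 2 μM. Leaving out 1 library gave 7 to 16 members higher in the model, 0 to 2 lower at 0.5 μM, 0 to 1 lower at 1 μM, 0 to 1 higher and 4 to 9 lower at 2 μM, and 0 to 4 differing between 2 and 1 μM. The causes of these shifts were not tested.

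Deviations of libraries sharing a replicate number correlated at -0.164 to 0.192, and no comparison had all 3 pairs over 0.1, so the numbers were not taken to pair libraries. The nearest was 2 μM FUCO against the model, where replicates 1, 2 and 3 gave 0.126, 0.0968 and 0.0935. There the highest values between different numbers were -0.0506, -0.00812 and -0.0383. A replicate block gave 2 members lower at 0.5 μM, 0 higher at 2 μM and 5 differing between 2 and 1 μM.

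The values that changed sign did so only without 1 library, all of them uncalled. Their ranges of log2 fold change over the 18 such fits follow. For the model against Con, the range was -0.37 to 0.92 for CD36. For 0.5 μM FUCO against the model, the range was -0.036 to 0.31 for CD36, -0.057 to 0.15 for ACADSB, -0.13 to 0.0055 for ACAA1, -0.020 to 0.068 for PPARA and -0.094 to 0.068 for CREB3L3. For RES against the model, the range was -0.17 to 0.18 for CD36. For 2 μM FUCO against the model, the range was -0.15 to 0.050 for ACSL1, -0.21 to 0.014 for ACSL5, -0.047 to 0.10 for ACADSB and -0.27 to 0.44 for ANGPTL4. For 1 μM FUCO against the model, the range was -0.049 to 0.030 for ACSL4, -0.10 to 9.3e-05 for ETFDH, -0.035 to 0.17 for ACAA1, -0.13 to 0.10 for CREB3L3 and -0.038 to 0.17 for BDH1. Low counts limit CD36, ACSL5, ANGPTL4 and VNN1, which had at most 51 counts in each Con library.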
